A study of Gallus gallus with 4 samples.

Results

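Condensin peaks on chicken chromosomes 8, 9 and 10 are the rows of the deposited SMC2 and CAP-H peak lists that carry one of those chromosome names. There were 762 of them, 401 in the SMC2 list and 361 in the CAP-H list, out of 6474 and 4369 peaks in all. The choice used chromosome names alone, and no measured value. The cells were DT40, a B cell line from a chicken lymphoma. In each line a knockout of SMC2 or of CAP-H was rescued by a transgene of the same protein with the streptavidin-binding tag SBP. Doxycycline at 2 ng/ml kept the untagged protein off, and nocodazole at 500 ng/ml held the cells in mitosis. Cells were fixed in 1% formaldehyde and sheared by sonication, and DNA held by the tagged protein was caught on streptavidin beads and read from one end over 50 bp. The labels name 4 libraries, a pull-down and an input for each subunit, and do not say whether a line came from 1 clone. Every group thus holds 1 library, and the inputs were not analysed here.

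Condensin is a ring-shaped complex that folds mitotic chromosomes by drawing DNA into loops. SMC2 is one of its pair of ATPase arms and is present in both forms of the complex, condensin I and condensin II. CAP-H is the kleisin, the subunit that closes the ring, of condensin I only. A site found with SMC2 may hold either form, whereas a site found with CAP-H speaks of condensin I. Bird genomes combine a few large chromosomes with many small, gene-rich ones, and chromosomes 8 to 10 lie between these in size.

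With 1 library per subunit there was no replicate check, and no test of a difference was made. The intervals given are exact 95% intervals for counting error only, and they treat peaks as independent, which neighbouring peaks may not be. The read depth behind the lists is unknown. The authors' score, given for SMC2 peaks only, ran from 50.06 to 3100 on these chromosomes, and 3100 is also the highest score of the whole list. The same highest value occurs on chromosomes 1 to 5 and on chromosomes 11 to 28. It may be a ceiling of the score, which was not tested, and peaks at 3100 cannot be ranked among themselves. All positions are counted from 1 in galGal4, the build named in the submitters' processing notes. Genes at the peaks are not named, since no annotation of that build was used here.

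Chromosomes 8 to 10 carried more condensin peaks per Mb than chromosomes 6 and 7, the next larger ones, and fewer than the small chromosomes 11 to 28. The density was 5.56 peaks per Mb (5.03 to 6.14) in the SMC2 list and 5.01 (4.50 to 5.55) in the CAP-H list. On chromosomes 6 and 7 it was 2.80 (2.42 to 3.21) and 3.01 (2.62 to 3.44). The ratio was 1.99 (1.67 to 2.37) for SMC2 and 1.665 (1.40 to 1.98) for CAP-H. Chromosome 6 alone had 3.35 (2.77 to 4.02) and 3.75 (3.14 to 4.45) peaks per Mb, and chromosome 7 had 2.26 (1.80 to 2.81) and 2.29 (1.82 to 2.84). The CAP-H interval of chromosome 6 overlapped that of chromosome 8, at 4.10 (3.397 to 4.91). Against chromosomes 1 to 5 the ratios were 2.15 (1.92 to 2.40) and 2.61 (2.31 to 2.94). Chromosomes 11 to 28 in turn exceeded chromosomes 8 to 10 by 3.34 times (3.01 to 3.71) for SMC2 and 2.25 times (2.01 to 2.53) for CAP-H. The length of a chromosome is its highest listed peak coordinate, and the number of copies of each chromosome in the cells was not measured.

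Among the 3 chromosomes, density was lowest on chromosome 8 in both lists. SMC2 peaks numbered 144 on chromosome 8, 132 on chromosome 9 and 125 on chromosome 10, or 5.01 (4.22 to 5.90), 5.63 (4.71 to 6.68) and 6.29 (5.23 to 7.49) per Mb. CAP-H peaks numbered 118, 130 and 113, or 4.10 (3.397 to 4.91), 5.55 (4.63 to 6.59) and 5.68 (4.68 to 6.83) per Mb. The CAP-H density of chromosome 8 was below those of the other two, with a ratio of 1.35 (1.05 to 1.75) for chromosome 9 over 8 and 1.38 (1.06 to 1.81) for 10 over 8. For SMC2 the same ratios, 1.12 (0.881 to 1.43) and 1.26 (0.980 to 1.61), had intervals that include 1.

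As listed, SMC2 and CAP-H peaks were nearly balanced in number on these chromosomes. The ratio of SMC2 to CAP-H peaks was 1.11 (0.961 to 1.28), against 1.35 (1.25 to 1.45) on chromosomes 1 to 5, 1.65 (1.55 to 1.74) on chromosomes 11 to 28 and 0.930 (0.763 to 1.13) on chromosomes 6 and 7. The interval lay wholly below that of chromosomes 11 to 28 and overlapped the others. By chromosome the value was 1.22 (0.950 to 1.57) on 8, 1.02 (0.791 to 1.30) on 9 and 1.11 (0.851 to 1.44) on 10. The balance depends on the thresholds of both lists, which no source used here states.

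On chromosome 8 the fourth of 5 equal segments held more peaks of each list than any other, and few peaks lay at the start. The fourth segment, up to 23.0 Mb, held 48 SMC2 peaks at 8.35 per Mb (6.15 to 11.1) and 40 CAP-H peaks at 6.96 per Mb (4.97 to 9.47). These intervals overlap those of the second segment, at 6.09 (4.24 to 8.46) for SMC2 and 4.17 (2.67 to 6.21) for CAP-H. For CAP-H they also overlap that of the last segment, at 5.39 (3.66 to 7.65). The middle segment held 16 and 13, at 2.78 (1.59 to 4.52) and 2.26 (1.20 to 3.87) per Mb. The first peak was a CAP-H peak from 435824 to 438316, and the first SMC2 peak, from 854618 to 855278, had a score of 51.84. Each list had 1 peak in the first 1 Mb. That was 0.194 times (0.00488 to 1.10) the density of the rest for SMC2 and 0.237 times (0.00596 to 1.35) for CAP-H, and both intervals include 1. At the far end the last SMC2 peak, from 28750922 to 28753679 with a score of 125, set the highest coordinate, and the last CAP-H peak lay from 28741874 to 28746566.

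The balance of the lists moved along chromosome 8. SMC2 peaks outnumbered CAP-H peaks 2.30 times (1.05 to 5.41) in the first segment, with 23 against 10, and 1.46 times (0.843 to 2.56) in the second, with 35 against 24. In the last segment the order was turned, with 22 SMC2 and 31 CAP-H peaks, a ratio of 0.710 (0.392 to 1.27). The intervals of the first and the last segment overlap. For SMC2, overlap with the other list differed: 6 of 35 peaks of the second segment had a CAP-H partner, or 17.1% (6.56 to 33.6). In the last segment 13 of 22 did, or 59.1% (36.4 to 79.3), beside 36.1% on the whole chromosome. The CAP-H shares of those segments were 33.3% (15.6 to 55.3) and 41.9% (24.5 to 60.9), with intervals that overlap. These segments were picked from 15 on the 3 chromosomes after their values were seen.

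**Figure D1:**
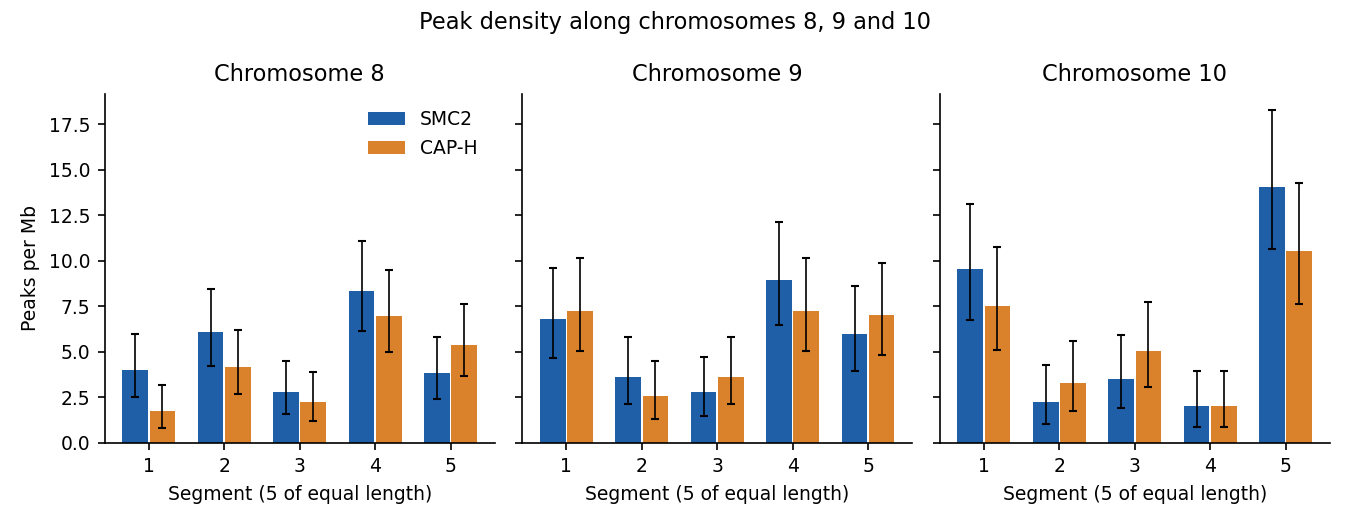
Peaks per Mb (y axis) of the SMC2 list (blue) and the CAP-H list (orange) in 5 segments of equal length along chromosomes 8, 9 and 10 (x axis, from the first base). Bars are counts divided by length and error bars are exact 95% Poisson intervals. The fourth segment is highest for SMC2 on chromosomes 8 and 9, at 8.35 and 8.96, and the fifth on chromosome 10, at 14.1.

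On chromosome 9 peaks were frequent at the start, in the fourth segment and at the end. The fourth segment had 42 SMC2 peaks at 8.96 per Mb (6.46 to 12.1) and 34 CAP-H peaks at 7.25 (5.02 to 10.1). The first segment had 32 and 34, at 6.83 (4.67 to 9.64) and 7.25 (5.02 to 10.1). The last had 28 and 33, at 5.97 (3.97 to 8.63) and 7.04 (4.85 to 9.89). The second segment and the one after it were sparse, with 17 and 13 SMC2 peaks and 12 and 17 CAP-H peaks. Among windows of 1 Mb the richest for SMC2 began at 14000001, with 26 SMC2 and 14 CAP-H peaks. The window from 4000001 had 19 SMC2 and 15 CAP-H peaks. SMC2 peaks per CAP-H peak ran from 0.765 to 1.42 over the 5 segments, and each interval included 1.

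CAP-H peaks were dense at both ends of chromosome 9. The last 1 Mb held 19 CAP-H peaks, 3.84 times (2.23 to 6.28) the density of the rest of the chromosome, and 13 SMC2 peaks, 2.45 times (1.27 to 4.35). In the first 1 Mb there were 13 CAP-H peaks, 2.49 times (1.29 to 4.43) the rest, and 8 SMC2 peaks, 1.45 times (0.611 to 2.94). Some of these 13 CAP-H peaks were close neighbours, with gaps of 18, 557, 890 and 131 bp. The ratios at chromosome ends were not computed after merging close peaks. CAP-H peaks began at 10646, with a peak to 11712, whereas the first SMC2 peak lay from 361081 to 362555. Both lists closed at the same place, with an SMC2 peak of score 3100 from 23435765 to 23440701 inside a CAP-H peak from 23435635 to 23440800. That CAP-H peak sets the highest coordinate of the chromosome.

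On chromosome 10 most peaks lay in the first and the last segment. The last segment held 56 SMC2 peaks, 44.8% of those on the chromosome, at 14.1 per Mb (10.6 to 18.3), and 42 CAP-H peaks, 37.2%, at 10.6 per Mb (7.61 to 14.3). The first segment held 38 SMC2 and 30 CAP-H peaks, at 9.55 and 7.54 per Mb. The fourth segment, between 11.9 and 15.9 Mb, had 8 of each, or 2.01 per Mb (0.868 to 3.96). The last 1 Mb alone had 34 SMC2 peaks, 27.2% of the chromosome's and 7.06 times (4.61 to 10.6) the density of the rest. It had 20 CAP-H peaks, 17.7% of the chromosome's and 4.06 times (2.37 to 6.64) the density of the rest. Partners were found for 8 of those 34 SMC2 peaks, beside 32.0% of all SMC2 peaks on chromosome 10 and 31.0% of the whole list. For CAP-H 9 of those 20 peaks had a partner, beside 33.6% and 42.4%.

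At the outermost positions of chromosome 10 the lists did not coincide. The first SMC2 peak lay from 3376 to 5103 with a score of 111 and the first CAP-H peak from 21917 to 22668, and neither had a partner. The last CAP-H peak, from 19873232 to 19874823, lay 9013 bp before the last SMC2 peak, from 19883836 to 19885184 with a score of 135. The last 1 Mb of chromosome 8, by contrast, held 6 SMC2 and 4 CAP-H peaks, 1.21 times (0.435 to 2.69) and 0.974 times (0.261 to 2.56) the density of the rest. 

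Peaks of both subunits came in clusters, defined as 5 or more peaks of either list with no gap over 20 kb. There were 32 clusters, 10 on chromosome 8, 13 on chromosome 9 and 9 on chromosome 10. They held 265 of the 762 peaks, 34.8% (31.4 to 38.3), in 1.09 Mb, which is 1.51% of the summed length. Of the SMC2 peaks 131 and of the CAP-H peaks 134 were in a cluster. Clusters spanned 4.85 to 126 kb with a median of 33.7 kb, and 31 of the 32 held peaks of both subunits. A cluster starts and ends at its own peaks, so a short span holding many peaks follows from the definition. An overlapping pair counts as 2 peaks, so the definition favours sites found with both subunits.

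The largest cluster of chromosome 8 ran from 19628974 to 19693180 and held 11 SMC2 and 9 CAP-H peaks. Its strongest SMC2 peak, with a score of 252, lay from 19635296 to 19637159. One CAP-H peak, 7.23 kb wide and starting at 19660466, overlapped 3 SMC2 peaks with scores of 167, 221 and 208. In all, 8 of the SMC2 and 5 of the CAP-H peaks overlapped the other list, and the unshared SMC2 peaks had scores of 77.46, 95.96 and 64.61. The 100-kb window from 19600001 therefore had most peaks of the chromosome for CAP-H and tied for SMC2 with the window from 22800001, at 11 each.

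A pair of clusters stood close together near 22.9 Mb on chromosome 8. The first, from 22830027 to 22860033, had 8 SMC2 and 4 CAP-H peaks, and each of its CAP-H peaks overlapped SMC2. It contained the widest CAP-H peak of the chromosome, of 7.72 kb from 22845923 to 22853639, over SMC2 peaks with scores of 149 and 560. The second, from 22881503 to 22918116, had 6 SMC2 and 5 CAP-H peaks. There an SMC2 peak scoring 367 (22896920 to 22901850, 4.93 kb) lay inside a CAP-H peak of 6.65 kb.

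Some clusters of chromosome 8 held CAP-H peaks almost alone. From 27140897 to 27166358 there were 5 CAP-H peaks and no SMC2 peak, with the nearest SMC2 peak 54517 to 78035 bp away. Their widths ran from 750 to 1944 bp. From 12962745 to 13006161 there were 5 CAP-H peaks and 1 SMC2 peak with a score of 74.56, none of them overlapping. A cluster of 1 SMC2 and 4 CAP-H peaks without overlap lay on chromosome 9 from 976928 to 1017665. No cluster was made of SMC2 peaks alone.

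The largest cluster of chromosome 9 lay from 14745294 to 14813195 and was made of 11 SMC2 and 7 CAP-H peaks. Its right edge was the widest CAP-H peak on the 3 chromosomes, 8.61 kb between 14804591 and 14813195. That peak overlapped 4 SMC2 peaks with scores of 186, 170, 143 and 250. The SMC2 peak with the highest score of the cluster, 251, lay from 14757300 to 14760191 over a CAP-H peak of 2.83 kb. The 4 SMC2 peaks without a partner had scores from 73.03 to 79.79, below every shared SMC2 peak of the cluster.

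The second cluster of chromosome 9 lay between 15315518 and 15372421 and held 8 SMC2 and 5 CAP-H peaks. In each list 2 of these were shared, beside 31.0% of the whole SMC2 list and 42.4% of the whole CAP-H list. An SMC2 peak there, from 15340101 to 15342271 with a score of 195, was the strongest on the chromosome without a partner, 1.291 kb from the nearest CAP-H peak. A pair of clusters with 9 peaks followed. From 361081 to 386460 there were 4 SMC2 and 5 CAP-H peaks, and from 22868740 to 22903546 there were 5 SMC2 and 4 CAP-H peaks. The 100-kb window with most SMC2 peaks on the chromosome, 8, began at 15300001. Windows from 300001, 14700001, 15300001 and 22800001 tied at 5 CAP-H peaks.

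The largest cluster on the 3 chromosomes was the last but one of chromosome 10, between 19501409 and 19627048, which held 13 SMC2 and 10 CAP-H peaks. In this 126-kb stretch 4 of the 13 SMC2 and 4 of the 10 CAP-H peaks overlapped the other list. In the whole lists 31.0% and 42.4% did. In places peaks of the lists lay side by side without overlap: SMC2 and CAP-H peaks were 38 bp apart at 19539544 and 109 bp apart at 19561739. On all of chromosome 10, 4 of 85 unshared SMC2 peaks and 6 of 75 unshared CAP-H peaks were within 500 bp of the other list. The strongest SMC2 peak of the cluster, from 19625142 to 19627048 with a score of 226, had no partner. It was 3.09 kb from the nearest CAP-H peak. The 100-kb window from 19500001 had 8 peaks of each list, the most on the chromosome for both.

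Other clusters of chromosome 10 were smaller. From 14081101 to 14134660 there were 3 SMC2 and 6 CAP-H peaks, and all 3 SMC2 peaks were shared. From 18738604 to 18782330 there were 4 of each, with 1 of each shared. The cluster at the end, from 19846820 to 19885184, held both SMC2 peaks with the highest scores of the chromosome. One, with a score of 796, lay from 19853383 to 19856996 across 2 CAP-H peaks of 1324 and 1266 bp. The other, with a score of 649, lay from 19847045 to 19848969 over a CAP-H peak of 1598 bp.

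**Figure D2:**
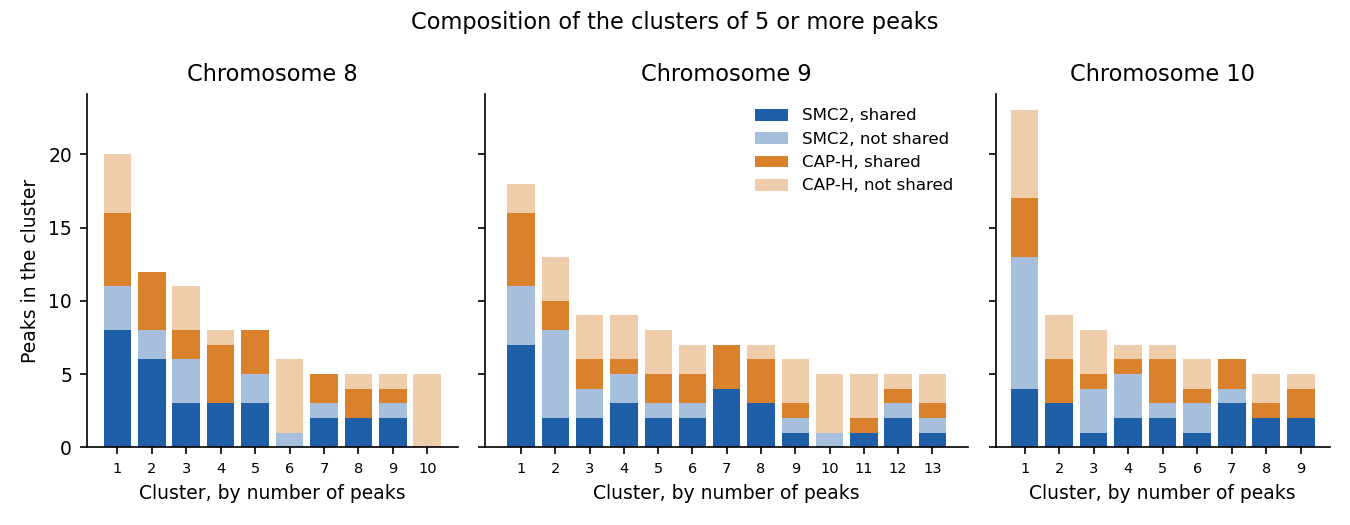
Number of peaks (y axis) in each cluster of 5 or more peaks, ordered by size (x axis), on chromosomes 8, 9 and 10. Dark colours are peaks that overlap the other list and pale colours those that do not, in blue for SMC2 and orange for CAP-H. The first cluster of chromosome 10 has 23 peaks, most of them pale, while the first of chromosome 8 has 20, most of them dark. In the whole lists 31.0% of SMC2 and 42.4% of CAP-H peaks overlap the other list.

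Long stretches held no peak of either subunit. There were 31 stretches of at least 500 kb, 12 on chromosome 8, 11 on chromosome 9 and 8 on chromosome 10. They made up 39.9%, 46.5% and 39.2% of those chromosomes. Of these, 10 were at least 1 Mb long. Each chromosome had one over 2 Mb: from 15648300 to 17789220 on chromosome 8 (2.14 Mb), from 19428983 to 21580533 on chromosome 9 (2.15 Mb) and from 14134661 to 16495437 on chromosome 10 (2.36 Mb). Gaps in the assembly were not analysed here.

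The next longest empty stretches differed more between chromosomes. On chromosome 8 they ran from 20840800 to 22667770 (1.83 Mb) and from 25269907 to 26408056 (1.14 Mb). On chromosome 9 they ran from 10485444 to 11934006 (1.45 Mb) and from 17375637 to 18721140 (1.35 Mb). On chromosome 10 they were shorter, from 12515217 to 13554655 (1.04 Mb) and from 8625972 to 9639045 (1.01 Mb).

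The edges of the longest empty stretch of chromosome 10 were almost the same in the separate lists. SMC2 peaks were missing from 14134304 to 16496358 and CAP-H peaks from 14134661 to 16495437. On chromosome 8, in contrast, the longest stretch without SMC2, 3.13 Mb from 15438631 to 18567985, contained 3 CAP-H peaks. Another without SMC2, 2.26 Mb from 24150947 to 26408056, also contained 3 CAP-H peaks. A stretch of 1.64 Mb without CAP-H, from 4145672 to 5784153, contained 6 SMC2 peaks, and one of 1.68 Mb, from 11052500 to 12728961, contained 5. In all, stretches of at least 500 kb without SMC2 made up 55.7% of the 3 chromosomes and those without CAP-H 61.0%. On chromosome 10 alone the CAP-H value was 49.3%, against 66.4% on chromosome 8 and 64.3% on chromosome 9.

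**Figure D3:**
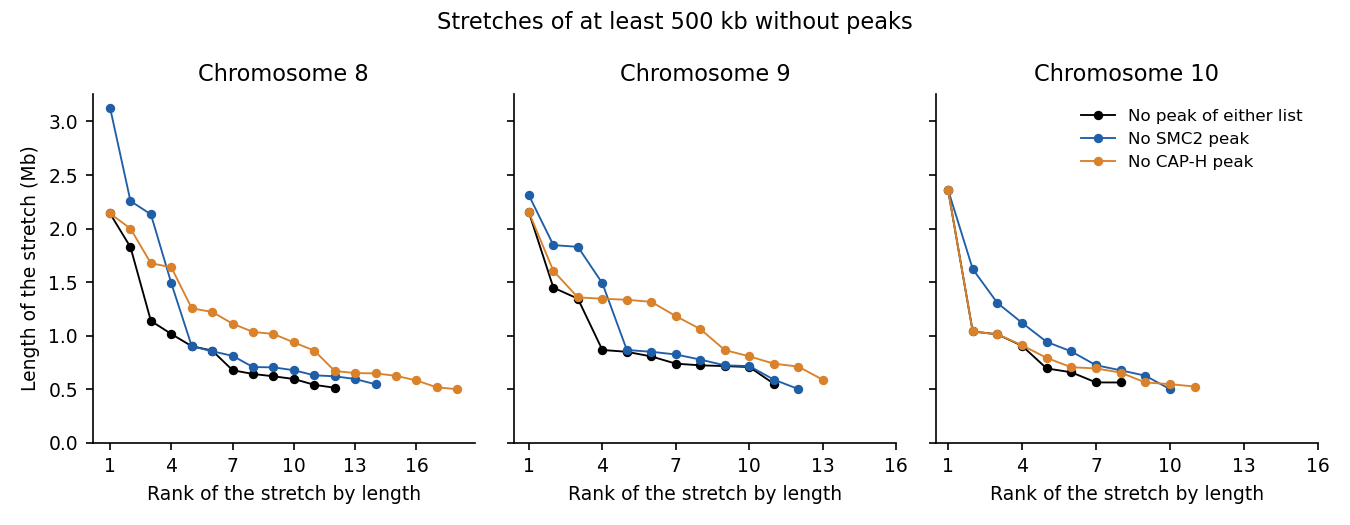
Length in Mb (y axis) of each stretch of at least 500 kb without peaks, ordered from the longest (x axis), on chromosomes 8, 9 and 10. Black points are stretches with no peak of either list, blue points those with no SMC2 peak and orange points those with no CAP-H peak. The longest black point is 2.14, 2.15 and 2.36 Mb, and the longest blue point of chromosome 8 is 3.13 Mb.

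Windows of 100 kb show the same unevenness. Of 722 windows, 440 (60.9%) had no peak, 119 had peaks of both lists, 94 had SMC2 peaks only and 69 had CAP-H peaks only. The share without a peak was 62.8% on chromosome 8, 60.4% on chromosome 9 and 58.8% on chromosome 10. Across windows of 1 Mb the counts of the lists went together, with a Spearman correlation of 0.656 over 29 windows on chromosome 8, 0.825 over 24 on chromosome 9 and 0.821 over 20 on chromosome 10. Across windows of 100 kb the correlation was lower, at 0.439, 0.506 and 0.601 on chromosomes 8, 9 and 10. The windows share their libraries and mappable sequence, so these values are descriptions.

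Overlap of at least 1 bp joined about as large a share of one list as of the other. A CAP-H partner was found for 143 of the 401 SMC2 peaks, 35.7% (31.0 to 40.6), against 31.0% of the whole SMC2 list. An SMC2 partner was found for 128 of the 361 CAP-H peaks, 35.5% (30.5 to 40.6), against 42.4% of the whole CAP-H list. The CAP-H interval lay below that of chromosomes 11 to 28, where 53.3% (51.1 to 55.6) were shared. It overlapped that of chromosomes 1 to 5, at 31.0% (28.4 to 33.8), and that of chromosomes 6 and 7, at 31.3% (25.2 to 38.0). For SMC2 the interval lay above that of chromosomes 1 to 5, at 24.5% (22.3 to 26.7), and around that of chromosomes 11 to 28, at 35.5% (33.8 to 37.1). It overlapped that of chromosomes 6 and 7, where the SMC2 share was higher, at 39.7% (32.8 to 46.9). More peaks per Mb in one list leave more places for the other to overlap, and overlap by chance placement was not computed here.

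The 3 chromosomes had overlap shares whose intervals overlap one another. For SMC2 the share was 36.1% (28.3 to 44.5) on chromosome 8, 38.6% (30.3 to 47.5) on chromosome 9 and 32.0% (23.9 to 40.9) on chromosome 10. For CAP-H it was 39.0% (30.1 to 48.4), 33.8% (25.8 to 42.7) and 33.6% (25.01 to 43.1). In clusters 79 of 131 SMC2 peaks were shared, 60.3% (51.4 to 68.7), against 64 of 270 outside, 23.7% (18.8 to 29.2). For CAP-H 65 of 134 were shared in clusters, 48.5% (39.8 to 57.3), and 63 of 227 outside, 27.8% (22.0 to 34.1). Since overlapping pairs count toward a cluster, the definition itself raises the share inside.

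When overlapping peaks were joined, the 762 peaks formed 612 sites. Peaks of both lists lay at 121 sites (19.8%), SMC2 peaks alone at 258 and CAP-H peaks alone at 233. Shares of sites were not computed for the whole lists. A site without a listed peak of a subunit was not shown to lack that subunit. Of the 121 shared sites 98 had 1 peak of each list. A CAP-H peak overlapped 2 or more SMC2 peaks in 17 cases, and an SMC2 peak overlapped 2 or more CAP-H peaks in 7. Shared bases came to 186 kb, which is 38.5% of the bases under SMC2 peaks and 28.2% of those under CAP-H peaks.

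In the 150 overlapping pairs the CAP-H peak was mostly the wider. It was wider in 115 pairs and narrower in 35, with a median width ratio of CAP-H to SMC2 of 1.65 (interquartile range 1.04 to 2.53). The pairs are not independent. A peak enters once per partner, so the 17 CAP-H and 7 SMC2 peaks with 2 or more partners weigh more. The median ratio was 1.53 on chromosome 8, 1.90 on chromosome 9 and 1.30 on chromosome 10. An SMC2 peak lay wholly inside its CAP-H partner in 68 pairs, and the reverse held in 10. The centres of the paired peaks were a median of 436 bp apart (interquartile range 198 to 975). Width depends on the reads and the settings of the caller in each list, which were not given, so widths are compared here only as listed.

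Peaks without a partner lay at widely varying distances from the other list. The 258 unshared SMC2 peaks lay a median of 34.5 kb from the nearest CAP-H peak, 75 of them within 10 kb and 60 beyond 100 kb. The 233 unshared CAP-H peaks lay a median of 28.5 kb from the nearest SMC2 peak, with 78 within 10 kb and 46 beyond 100 kb. Only 8 of each were within 500 bp. Distances were shortest on chromosome 10, with medians of 16.8 kb for SMC2 and 10.4 kb for CAP-H. They were 53.1 and 40.4 kb on chromosome 8, and 38.1 and 35.6 kb on chromosome 9. On chromosome 10, 32 of 85 unshared SMC2 peaks and 36 of 75 unshared CAP-H peaks were within 10 kb. Distances under chance placement were not computed here. The most isolated was a CAP-H peak of chromosome 8, at 1117 kb from any SMC2 peak.

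SMC2 peaks with a high score more often had a CAP-H partner. In the lowest of 4 equal groups by score, 50.06 to 58.67, 23 of 101 were shared, 22.8% (15.0 to 32.2). In the highest group, from 108.83 up, 68 of 100 were shared, 68.0% (57.9 to 77.0). The groups between had 20% (12.7 to 29.2) and 32.0% (23.0 to 42.1). All 6 SMC2 peaks scoring 500 or more and 21 of the 24 scoring 200 or more were shared. In the whole SMC2 list 127 of 130 and 459 of 552 such peaks were shared, so this is a trait of the list. Shared peaks of the 3 chromosomes had a median score of 101 (interquartile range 70.2 to 150) and unshared peaks one of 68.7 (56.7 to 86.0). In the whole SMC2 list these medians were 108 and 68.0, and that of all peaks was 74.5.

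The gap in score was small on chromosome 10. The median score of shared and unshared SMC2 peaks was 80.9 and 69.9 there, against 112 and 66.3 on chromosome 8 and 111 and 66.8 on chromosome 9. Of the SMC2 peaks scoring 100 or more, 28 of 39 were shared on chromosome 8, 28 of 46 on chromosome 9 and 16 of 30 on chromosome 10. In the whole SMC2 list 1100 of 1872 such peaks were shared. The strongest unshared peaks of the 3 chromosomes were both on chromosome 8. One, from 8649693 to 8650700 with a score of 303, lay 421 kb from the nearest CAP-H peak. The other, from 1170940 to 1172031 with a score of 299, lay 80.6 kb from it.

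**Figure D4:**
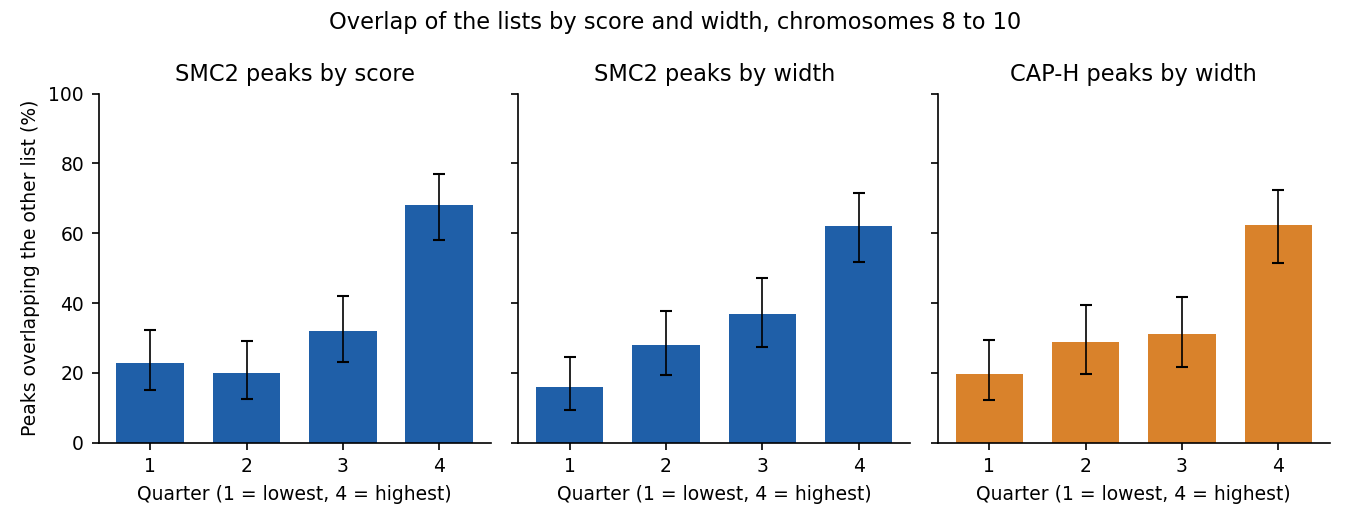
Share of peaks on chromosomes 8 to 10 that overlap a peak of the other list (y axis, percent) in 4 equal groups by SMC2 score, SMC2 width and CAP-H width (x axis, from lowest to highest). Error bars are exact 95% binomial intervals. In each panel the highest group stands above the other groups, at 68.0%, 62.0% and 62.2%.

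The highest SMC2 scores lay at few places. After the peak of score 3100 near the end of chromosome 8, from 28741902 to 28746871, the next on that chromosome were 560 in the cluster described above and 557 from 9989554 to 9992706, over 2 CAP-H peaks. These were followed by 374 from 23204950 to 23206031 and by the 367 of the second cluster near 22.9 Mb. On chromosome 9 the scores after 3100 were 341 from 23076940 to 23079958, 251 and 250 in the largest cluster, and 230 (229.79) from 22417874 to 22419459. On chromosome 10 no peak reached 3100. Its scores after 796 and 649 were 243 from 10220727 to 10222673, 226 in the largest cluster and 183 from 17645104 to 17646496. Of these 15 peaks 14 had a CAP-H partner.

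SMC2 peaks were narrow, and none of the 401 reached 5 kb, nor did any of the 199 on chromosomes 6 and 7. In the whole list 95 of 6474 did. The 401 had a median width of 1041 bp (interquartile range 841 to 1370), beside 1126 bp in the whole list. The widest, of 4970 bp, was the one of score 3100 on chromosome 8. CAP-H peaks had a median of 1434 bp (956 to 2270), beside 1380 bp in the whole list. Of the 361, 13 were 5 kb or wider, beside 169 of 4369 in the whole list. Of the 13, 5 were on chromosome 8, 7 on chromosome 9 and 1 on chromosome 10. Median CAP-H width was 1535.5 bp (95% order-statistic interval 1225 to 1877) on chromosome 8, 1601 (1345 to 1806) on chromosome 9 and 1241 (1085 to 1392) on chromosome 10. Median SMC2 width was 1005 (922 to 1075), 1138 (1041 to 1230) and 1011 (921 to 1056) bp.

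Width went with sharing in both lists. Of the narrowest of 4 equal groups of SMC2 peaks, 443 to 841 bp, 15.8% (9.33 to 24.4) were shared, and of the widest, from 1375 bp up, 62.0% (51.7 to 71.5). Of the narrowest such group of CAP-H peaks, 466 to 956 bp, 19.8% (12.2 to 29.4) were shared, and of the widest, from 2272 bp up, 62.2% (51.4 to 72.2). Shared CAP-H peaks had a median of 2047 bp and unshared ones 1215 bp, beside 1858 and 1177 bp in the whole list. For SMC2 these were 1239 and 932 bp, beside 1458 and 1030 bp. A wider peak has more bases with which to overlap, and across SMC2 peaks width and score had a Spearman correlation of 0.717 (n = 401 peaks of 1 library).

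Wide CAP-H peaks did not always overlap an SMC2 peak. On chromosome 9 the 5 widest were the 8.61-kb peak of the largest cluster and peaks of 6.94 kb from 2091329, 6.83 kb from 22887061, 6.78 kb from 12169818 and 5.45 kb from 13162597. The last of these had no SMC2 partner. On chromosome 10 the widest, 5.77 kb from 6940281 to 6946048, overlapped 1 SMC2 peak of 1205 bp, and the next, 4.75 kb from 10741891 to 10746637, overlapped none. A further 3 there, of 4.71 kb from 18171539, 4.21 kb from 19607109 and 3.88 kb from 17222223, each had a partner. On chromosome 8 all 5 of the widest had 2 or more SMC2 partners. They included 6.37 kb from 4139299 and 5.06 kb from 19631886.

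Among the 5 widest SMC2 peaks of each chromosome a pair lacked a partner. One was the peak of score 226 in the largest cluster of chromosome 10. The other lay on chromosome 9 from 3455076 to 3458843, was 3.77 kb wide and scored 149. Other wide peaks were shared: 3.93 kb from 27586945 on chromosome 8 with a score of 331, and 2.98 kb from 2095123 on chromosome 9 with a score of 218. A peak on chromosome 10 that began at 17221957 was 2.68 kb wide, scored 145 and overlapped the CAP-H peak of 3.88 kb.

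**Figure D5:**
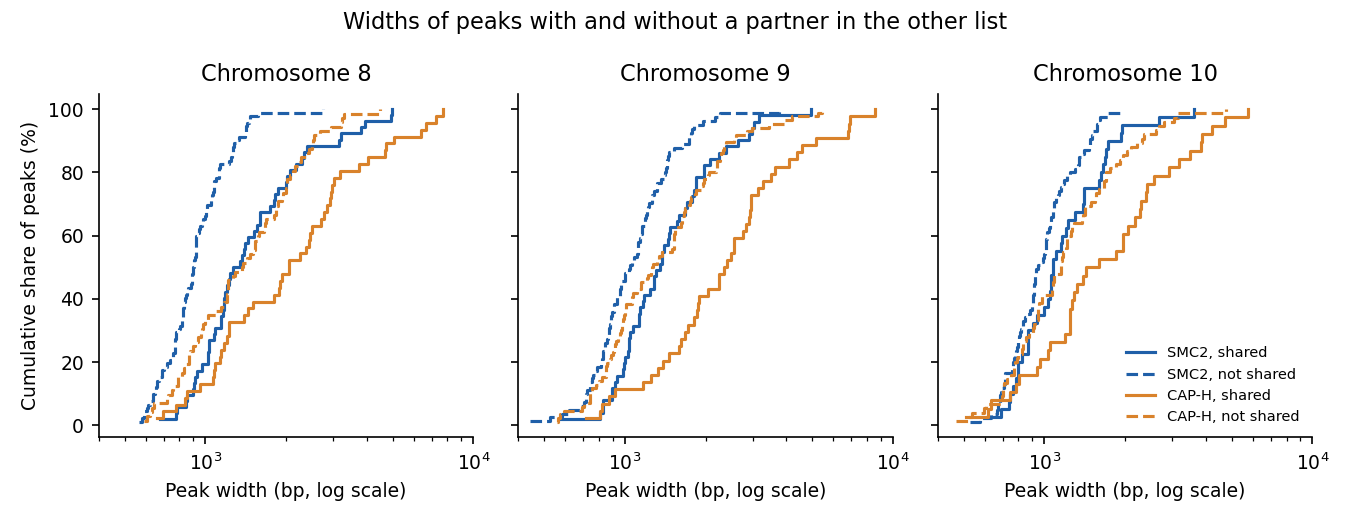
Cumulative share of peaks (y axis, percent) by width in bp (x axis, log scale) on chromosomes 8, 9 and 10. Blue lines are SMC2 and orange lines CAP-H, solid for peaks that overlap the other list and dashed for those that do not. Solid lines lie mostly to the right of the dashed lines of the same colour, with CAP-H medians of 2047 bp for shared and 1215 bp for unshared peaks over the 3 chromosomes.

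Under their peaks the lists covered 483 kb for SMC2, 0.670% of the 3 chromosomes, and 659 kb for CAP-H, 0.914%. By chromosome the SMC2 coverage was 0.606% on 8, 0.734% on 9 and 0.687% on 10. CAP-H covered 0.792%, 1.09% and 0.882%. CAP-H thus covered more of each chromosome than SMC2 with fewer peaks. The order was the same on chromosomes 6 and 7, with 0.346% for SMC2 and 0.526% for CAP-H. It was turned on chromosomes 1 to 5, with 0.367% and 0.343%, and on chromosomes 11 to 28, with 2.77% and 2.33%.

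Peaks of one list were often close neighbours. The nearest peak of the same list lay within 10 kb for 187 of the SMC2 peaks (46.6%) and 186 of the CAP-H peaks (51.5%). The median distance to it was 12.8 kb for SMC2 and 8.42 kb for CAP-H. For SMC2 the share within 10 kb was 43.8% on chromosome 8, 53.0% on chromosome 9 and 43.2% on chromosome 10. For CAP-H it was 48.3%, 51.5% and 54.9%. Some neighbours nearly touched: the CAP-H peak from 27591926 to 27595980 on chromosome 8 was 2 bp from the next. Such peaks may be parts of 1 wider site. Merging peaks under 1 kb apart lowered the densities to 5.08 (SMC2) and 4.13 (CAP-H) per Mb. The shares within 10 kb were not computed after merging or for the whole lists.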

How the data were processed

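Peak lists of the SMC2 and CAP-H pull-downs were analysed, 1 library each. The submitters' processing notes name BWA and galGal4, without versions. Peaks bear names of the form that MACS writes, but no source used here gives the version of the caller, its control or its threshold. The deposited SMC2 score is the authors' own value per peak and was used only within that list. The CAP-H list has none. Starts were taken as counted from 0, as a start of 0 occurs in both lists, and 1 was added. Peaks on contigs assigned to a chromosome but not placed on it were left out.

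From the lists, overlap (at least 1 bp), clusters, empty stretches (the part after the last peak is not counted), densities and widths were computed with Python 3.11.15, numpy 2.4.6, pandas 2.3.3, scipy 1.17.1 and matplotlib 3.10.9. Overlap, clusters, empty stretches and the merging of close peaks were tested on simulated data. Densities, widths and intervals were not. Intervals are Clopper-Pearson, Poisson, exact conditional or order-statistic. Named regions on each chromosome are the 5 highest scores, the 5 widest peaks per list, the 3 largest clusters, the 3 longest empty stretches, the first and last peaks and the richest 100-kb windows; others were chosen after their values were seen. Members and rules were chosen with earlier results of these data known. The profiles around transcription start sites were not used.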

Additional observations from a re-analysis of the deposited data

How the results depend on the processing

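Depth is unknown, and thresholds of the lists limit every count. No paired analysis was possible because each group has 1 library. Of 118 values under the other settings tried, 51 stayed within the main interval, or within 1.5 times a count or a length share; this includes all 8 with a 500-bp tolerance and all 8 with length from the first to the last peak. The cause of the other changes was not tested beyond what each rule itself does. Values are given for chromosomes 8, 9, 10 and all 3, in that order. With overlap of at least 50% of both peaks, SMC2 shares were 14.6%, 18.2%, 16.8% and 16.5%, and CAP-H shares 17.8%, 18.5%, 18.6% and 18.3%. With an SMC2 score of at least 100, SMC2 shares were 71.8%, 60.9%, 53.3% and 62.6%, CAP-H shares 22.9%, 20%, 15.0% and 19.4%, SMC2 densities 1.36, 1.96, 1.51 and 1.60 per Mb, SMC2 median widths 1570.0, 1542.5, 1379 and 1475 bp, and SMC2 peaks per CAP-H peak 0.331, 0.354, 0.265 and 0.319; stretches without peaks made up 63.1% of chromosome 8. With peaks under 1 kb apart merged, CAP-H densities were 3.34 on chromosome 8, 4.68 on chromosome 10 and 4.13 over all, and CAP-H median widths 1971, 1846, 1665 and 1845.5 bp. With gaps of at most 10 kb, clusters held 26.3%, 29.8%, 15.5% and 24.1% of peaks. With 50 kb they held 49.2%, 62.2%, 60.5% and 57.2%, and chromosome 10 had 17 clusters. With 5 or more separate sites there were 6, 8, 5 and 19 clusters, with 23.7%, 28.6%, 22.3% and 24.9% of peaks. Empty stretches of at least 1 Mb numbered 4, 3, 3 and 10, or 21.3%, 21.1%, 22.2% and 21.5% of the length. The richest windows of 1 Mb held 23, 26 and 32 SMC2 and 16, 15 and 20 CAP-H peaks on chromosomes 8, 9 and 10.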

Other observations

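Contigs that the build assigns to chromosomes 8, 9 or 10 without placing them carried 5 SMC2 and 2 CAP-H peaks, which are in no comparison above. On a contig of chromosome 8 there were 3 SMC2 peaks, with scores of 151.58, 87.09 and 57.22, and 1 CAP-H peak of 918 bp, which overlapped the SMC2 peak of score 87.09. Contigs of chromosome 9 had 2 SMC2 peaks, with scores of 73.8 and 58.43, and a contig of chromosome 10 had 1 CAP-H peak of 1336 bp.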
